A study of Mus musculus with 6 samples.

Results

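The genes described here are 6 that are linked to cilia and to ependymal cells, Foxj1, Ccdc153, Tmem212, Dynlrb2, Nme7 and Spag6. They were given as a list, 6 of the 32285 genes in the count tables, and all 6 were found by symbol. Their levels were read in 6 coronal sections of the brains of males of the inbred strain C57BL/6J, with 2 sections per age at 6 months (young), 18 months (middle-aged) and 21 months (old). The labels name no treatment, transgene or other genotype. The assay was Visium spatial RNA sequencing, in which tissue is laid over barcoded spots and each captured transcript is counted once by its unique molecular identifier (UMI). A spot is a small region in which cells of more than one type can sit together. The sections middle 2 and old 2 were on slide 2, and the other 4 sections were on slide 1.

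Ependymal cells line the brain ventricles and move cerebrospinal fluid with tufts of motile cilia. A motile cilium is built on an axoneme, a ring of doublet microtubules around a central pair, and beats through dynein motors fixed to the doublets. Foxj1 is the forkhead transcription factor that switches on the motile cilium programme, and RFX factors bind a promoter element named the X-box in many cilium genes. Dynlrb2 is a roadblock-type dynein light chain, Spag6 is a protein of the central pair apparatus, and Nme7 is a nucleoside diphosphate kinase family protein that binds the gamma-tubulin ring complex and is also part of the axoneme. Ccdc153, a coiled-coil protein, and Tmem212, a membrane protein, are used as markers of ependymal cells.

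The data went with the label for 4 of the 6 genes. Foxj1, Ccdc153, Tmem212 and Dynlrb2 were concentrated in spots of the ventricle wall. Nme7 was found in every region and was not raised in the wall, and Spag6 was nearly missing from the wall and highest in cortical spots. With age, no change of the 4 wall genes passed the test in whole sections. In the wall they were called only once the replicate number was added to the fit, and not with slide added. Spag6 was higher in both middle-aged and old sections than in the young ones. The paralog Spag6l was higher in the wall, and RefSeq lists each of these 2 symbols as a synonym of the other gene.

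On GRCm38 (GENCODE M21), Foxj1 lies on the reverse strand of chromosome 11 at 116330704 to 116335399 and Ccdc153 on the forward strand of chromosome 9 at 44240676 to 44247306. Tmem212 lies on the reverse strand of chromosome 3 at 27866066 to 27896368 and Dynlrb2 on the forward strand of chromosome 8 at 116504974 to 116515915. Nme7 lies on the forward strand of chromosome 1 at 164304121 to 164437725 and Spag6 on the forward strand of chromosome 2 at 18694032 to 18750413. Spag6l lies on the reverse strand of chromosome 16 at 16753016 to 16829456. All 7 are annotated as protein coding.

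Promoter windows of RefSeq (GRCm38.p6, 250 bases before to 50 after a gene's start) were at hand for 5 of the 6 genes, all but Foxj1. They are shown for an X-box that 3 of the windows hold. Capitals mark an X-box (GTTGCC, then 4 or 5 bases of any kind, then AAC) in Dynlrb2, Ccdc153 and Nme7, its first part alone (GTTGCC) in Spag6, and the forkhead core TGTTTA in Tmem212. The sequences read 5′ to 3′ along the gene's strand, and the positions are chr8:116504924-116505014 for Dynlrb2, chr9:44240485-44240578 for Ccdc153, chr1:164307629-164307682 for Nme7, chr2:18698945-18699021 for Spag6 and chr3:27896374-27896459 for Tmem212. The RefSeq starts of Spag6, Nme7, Dynlrb2 and Ccdc153 lie inside the GENCODE genes, downstream of the first base given above.
Dynlrb2: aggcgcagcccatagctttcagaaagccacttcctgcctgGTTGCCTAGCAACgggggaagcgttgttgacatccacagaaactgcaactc
Ccdc153: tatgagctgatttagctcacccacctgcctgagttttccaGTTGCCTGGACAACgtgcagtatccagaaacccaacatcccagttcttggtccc
Nme7: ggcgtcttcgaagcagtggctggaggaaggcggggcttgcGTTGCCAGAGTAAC
Spag6: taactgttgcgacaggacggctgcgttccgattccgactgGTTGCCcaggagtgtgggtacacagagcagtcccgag
Tmem212: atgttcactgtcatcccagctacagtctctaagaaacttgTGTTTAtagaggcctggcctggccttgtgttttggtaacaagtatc

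An X-box in these letters, on either strand, was found in 3 of the 5 windows, and in 1.03% of the 32851 RefSeq windows. It began 51 bases before the start in Dynlrb2, 152 before it in Ccdc153 and 3 before it in Nme7, where it runs across the start. GTTGCC alone, which every X-box match contains, was found in 4 of the 5 windows (Spag6, Nme7, Ccdc153 and Dynlrb2) and in 12.5% of all windows. TGTTTA was found in Tmem212 only, and in 13.4% of all windows. The motifs were chosen after the 5 windows had been looked at, and a match is a description of letters, not of binding. So an X-box was found both in 2 of the wall genes and in Nme7, which was not one.

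The 6 sections held 60938938 to 77557934 UMIs in 2573 to 2973 kept spots each, 16741 spots in all. No image or spot position was used, so the ventricle wall was defined from transcripts. A wall spot held at least 3 UMIs from a reference list of 24 other motile cilium genes (such as Rsph1, Tekt1 and Cfap126), making up at least 3 of each 10000 UMIs of the spot. The rule gave 698 wall spots, 4.17% of all, and every other spot counted as elsewhere. There were 84 and 80 wall spots at the young age, 77 and 171 at middle age and 125 and 161 in old sections. Their share was 3.06% ± 0.29 (SD, n = 2) in young, 4.46% ± 2.33 in middle-aged and 4.92% ± 1.01 in old sections (exact permutation test over the 90 assignments, two-sided, p = 0.6, in a design whose smallest possible p is 0.067, so that it could not pass 0.05). Both old shares lay above both young ones, and the wall's share of all UMIs was 3.09% ± 0.60 in young and 4.76% ± 0.40 in old sections.

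Wall spots mixed tissues. By their transcripts, 292 lay in a choroid plexus cluster, 220 in hypothalamus clusters, 119 in a white matter cluster and 27 in a hippocampal cluster. All 12 choroid plexus markers were at least 49.6 times higher in the wall than elsewhere, and 4 of 13 meningeal markers at least 10 times. Tanycyte markers were not raised as a list (median 0.876 times, 1 of 7 at 10 times or more), nor were the 8 astrocyte markers (median 0.894 times). Levels are given as CPM (UMIs of the gene per 1000000 UMIs of the spots in question) and are compared for the same gene only. In spots as in bulk tissue, fewer cells of a type and less RNA per cell cannot be told apart.

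Foxj1, the regulator, reached 186, 160.0, 148, 92.7, 119 and 87.8 CPM in the wall of young 1, young 2, middle 1, middle 2, old 1 and old 2. Elsewhere it stayed at 4.42, 4.32, 3.98, 4.52, 4.22 and 5.01 CPM. All 6 wall values lay above all 6 values elsewhere. Pooled over sections, the wall level was 28.9 times that elsewhere, and the wall held 53.6% of the gene's UMIs.

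The other 3 wall genes were more concentrated in the wall by these ratios. Tmem212 stood at 106 to 212 CPM in the wall and 0.418 to 1.05 CPM elsewhere, a ratio of 216 with 89.6% of its UMIs in the wall. Ccdc153 stood at 97.9 to 274 CPM against 0.927 to 1.59 CPM, a ratio of 153 with 86.0% of its UMIs in the wall. Dynlrb2, the dynein light chain, stood at 78.7 to 154 CPM against 1.02 to 1.48 CPM, a ratio of 93.0 with 78.8% of its UMIs in the wall. Of the 24 reference genes, which chose the wall spots themselves, 23 were at least 10 times higher there, with a median of 26.1. Dynlrb1, the close relative of Dynlrb2 that serves cytoplasmic dynein in most cells, was at 281 to 370 CPM in the wall and 360 to 397 CPM elsewhere.

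Nme7 showed no such gradient. Its wall values were 27.8, 32.5, 27.4, 37.7, 40.7 and 33.8 CPM in young 1, young 2, middle 1, middle 2, old 1 and old 2, and its values elsewhere were 35.0, 32.6, 37.5, 50.2, 50.6 and 52.2 CPM. In each of the 6 sections the wall was the lower of the pair, by a ratio of 0.649 to 0.996. The wall held 3.10% of Nme7 UMIs.

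Spag6 gave 1, 0, 4, 3, 2 and 1 UMIs in the wall of the 6 sections in the same order, 11 of its 1851 UMIs in all, where 3 UMIs amount to 0.801 to 1.45 CPM. Elsewhere its level was 2.95, 2.87, 4.84, 4.85, 5.54 and 5.75 CPM. The pooled ratio of wall to elsewhere was 0.15. Its paralog Spag6l was at 24.7 to 60.7 CPM in the wall and 3.55 to 4.10 CPM elsewhere, a pooled ratio of 10.4, with 29.3% of its UMIs in the wall. The copies are alike in sequence, and how the authors' counting assigned reads that fit both is not given in the sources used here, so the split between Spag6 and Spag6l is uncertain.

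**Figure D1:**
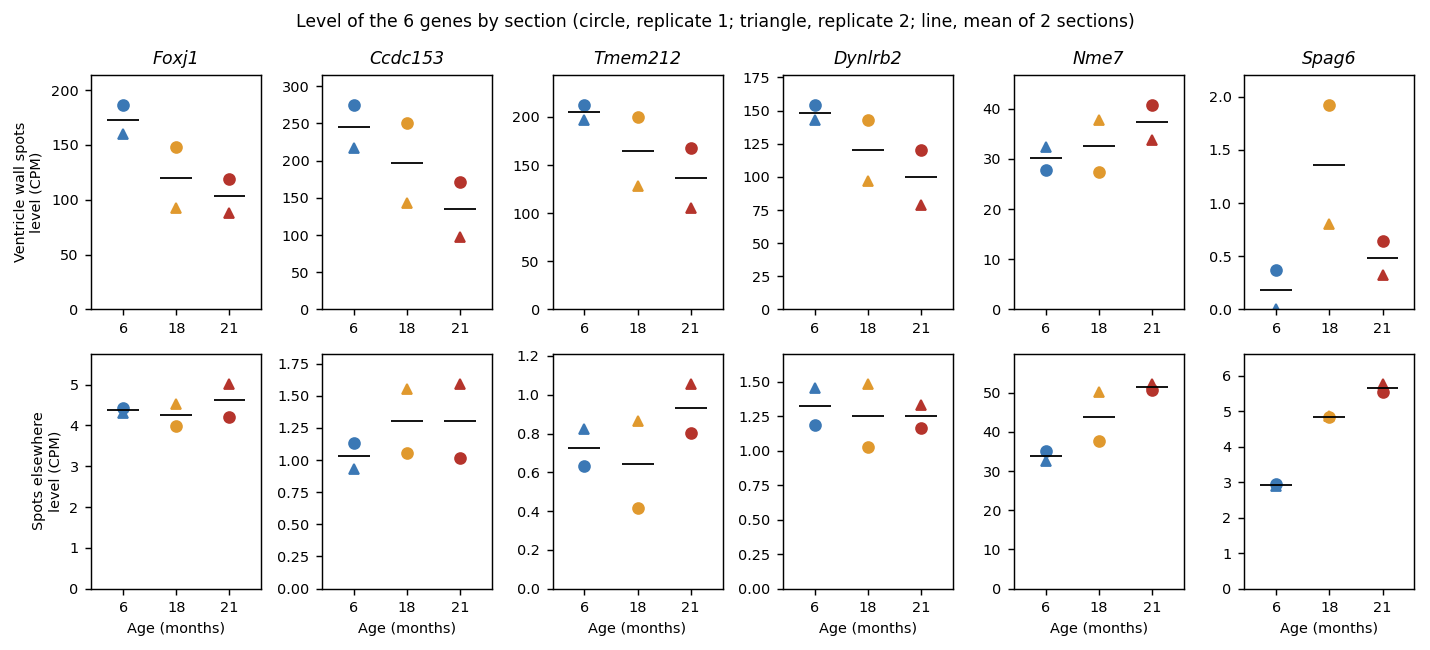
Level (CPM, linear axis from 0) of each gene in ventricle wall spots (top) and in all other spots (bottom) against age in months, with 1 point per section and a line at the mean of 2 sections. Foxj1, Ccdc153, Tmem212 and Dynlrb2 are higher in the wall than elsewhere in all 6 sections, while Nme7 is on like scales in both rows and Spag6 is lower in the wall.

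Spots were then ranked by their reference cilium content, in 6 classes from under 0.5 to 12 or more reference UMIs per 10000. Foxj1 went from 4.36 ± 0.42 CPM (SD, n = 6 sections) in the lowest class to 283 ± 52.4 CPM in the highest, which held 202 spots. Ccdc153 went from 0.739 ± 0.131 to 467 ± 90.8 CPM, Tmem212 from 0.536 ± 0.263 to 416 ± 45.2 CPM and Dynlrb2 from 1.05 ± 0.21 to 269 ± 26.9 CPM. For these 4 genes the values of the 6 sections in the top class lay above every value in the classes below the wall threshold.

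Just inside and just outside that threshold the 4 genes already differed. In the class of 3 to 6 per 10000 (338 spots) Foxj1 averaged 27.4 CPM, against 6.92 CPM in the class of 1.5 to 3 (1316 spots). Ccdc153 averaged 25.6 against 4.71 CPM, Tmem212 20.8 against 2.59 CPM and Dynlrb2 20.8 against 3.19 CPM. Nme7 ran the other way or stayed flat, with 43.4 ± 9.2 CPM in the lowest class, 33.3 ± 6.7 CPM at 3 to 6 per 10000 and 37.3 ± 5.9 CPM at 12 or more. Spag6 went from 4.47 ± 1.18 CPM in the lowest class to 0.348 ± 0.545 CPM in the highest, where 4 of 6 sections had none. Spots of 6 to 12 per 10000 also carried the most choroid plexus RNA, 3122 CPM summed over 12 markers against 13.6 CPM in the lowest class, and its part in these levels was not tested.

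**Figure D2:**
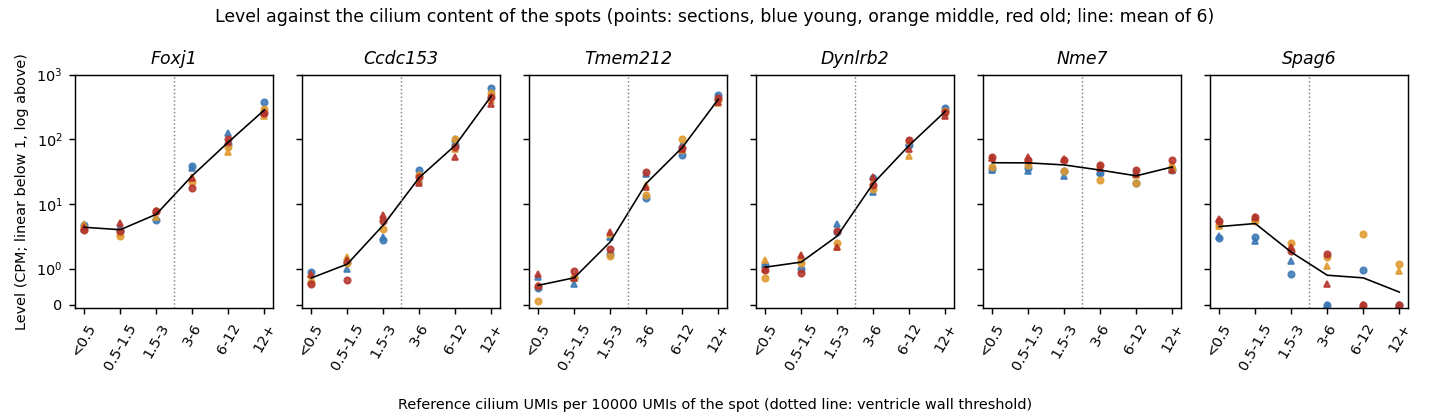
Level (CPM, logarithmic above 1 and linear below) of each gene in spots grouped by reference cilium UMIs per 10000, with 1 point per section and a line through the mean of 6. Foxj1, Ccdc153, Tmem212 and Dynlrb2 climb with cilium content, Nme7 stays between 20.9 and 53.6 CPM in every section and class, and Spag6 declines.

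The share of spots with any UMI of a gene followed the same order. After thinning each spot to 10000 UMIs, which left out 75 wall spots and 1323 others as too shallow, Foxj1 was seen in 40.9% to 64.4% of wall spots and 4.06% to 5.59% of spots elsewhere, depending on the section. Without thinning the shares were 43.5% to 72.5% and 8.88% to 12.01%. Tmem212 was seen in 35.4% to 60.6% of thinned wall spots and 0.477% to 1.22% of the others. Nme7 was seen in 21.9% to 30.7% and 24.5% to 34.0%, and Spag6 in 0% to 1.41% and 2.01% to 5.11%.

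Within the wall, the proportion of the 4 genes to the reference list was alike in choroid plexus and white matter settings and lower in hypothalamic ones. Per 1000 reference UMIs, Foxj1 gave 102 ± 9.4 (SD, n = 6 sections) in the choroid plexus cluster and 112 ± 5.5 in the white matter cluster. In hypothalamus clusters it gave 26.5 ± 16.2, from 47 UMIs in 220 spots. Dynlrb2 gave 96.0 ± 3.2, 86.6 ± 14.1 and 32.4 ± 13.7 in the same 3 settings, and Tmem212 gave 130 ± 3.2, 138 ± 26.3 and 39.7 ± 26.7. Nme7 went the other way, at 18.9 ± 4.8, 25.3 ± 8.7 and 69.9 ± 25.4. So the wall spots of the hypothalamus clusters passed the rule with few UMIs of the 4 genes. The wall fold changes of the 4 genes are given with and without these spots, and other wall results include them unless stated. Young sections had 12 and 20 of them, middle-aged sections 16 and 65 and old sections 27 and 80.

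Outside the wall, the 4 wall genes were not evenly spread. Clusters of spots were named as regions from marker genes, and 5 kept no name. Foxj1 was highest in the white matter cluster, at 24.9, 25.1, 26.2, 20.6, 24.8 and 26.5 CPM in young 1, young 2, middle 1, middle 2, old 1 and old 2. These values do not overlap those of thalamus (4.34 to 6.36 CPM) or isocortex (1.502 to 3.26 CPM). The unnamed clusters 13 (led by Lhx8 and Slc5a7) and 17 (led by Six3 and Spp1) followed at pooled levels of 12.2 and 11.4 CPM, with overlapping sections. In the white matter cluster Ccdc153 was at 2.48 ± 0.58 CPM (SD, n = 6), Tmem212 at 2.05 ± 1.148 CPM and Dynlrb2 at 2.86 ± 0.92 CPM. Foxj1 was lowest in amygdala and olfactory cortex, at a pooled 0.992 CPM. Choroid plexus spots under the wall threshold held 9.96 CPM of Foxj1 and 6.95 CPM of Tmem212, from 157 spots.

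**Figure D3:**
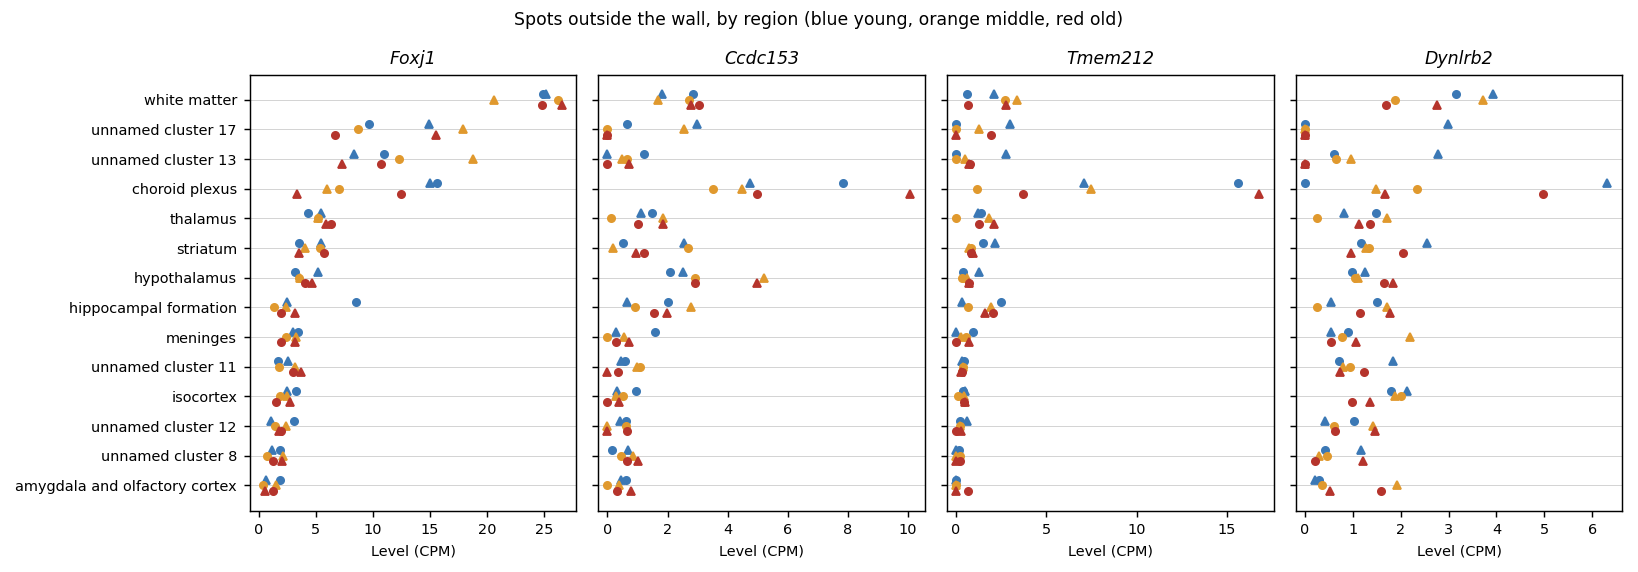
Level (CPM) of the 4 wall genes in spots outside the wall, by region (rows ordered by Foxj1), with 1 point per section (circle, replicate 1; triangle, replicate 2). Foxj1 is highest in the white matter cluster in every section, at 20.6 CPM or more, where the other 3 genes stay under 4 CPM.

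Spag6 had a regional pattern of its own. It was highest in amygdala and olfactory cortex, at 8.50, 4.999, 13.8, 13.9, 15.6 and 11.1 CPM in the 6 sections in the same order. Isocortex followed at 5.30, 5.35, 8.41, 9.83, 9.91 and 10.2 CPM, which overlaps the first region. The unnamed cluster 8 (led by Cdhr1 and Col23a1) came next with a pooled 7.18 CPM and the hippocampal formation with 5.38 CPM. Spag6 stayed under 1 CPM in striatum (0.895 CPM pooled), thalamus (0.823), hypothalamus (0.763), the choroid plexus cluster (0.695), white matter (0.609) and the unnamed cluster 13 (0.577). Spots in the white matter cluster held 12 Spag6 UMIs in 1575 spots.

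Nme7 varied less between regions. It ran from 18.7 CPM pooled in white matter to 70.4 CPM in the unnamed cluster 17, and 10 of the 14 regions lay between 39 and 50 CPM. Nme7 overlaps Atp1b1, an abundant sodium pump subunit on the opposite strand, over 617 bases at its 3′ end (chr1:164437109-164437725), and Blzf1 over 3369 bases. Whether counting used strand is not given in the sources used here. Atp1b1 was lowest (455 CPM pooled) and highest (3286 CPM) in the same 2 regions as Nme7, and its part in the Nme7 counts was not tested.

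Across the 17 clusters, the patterns of Tmem212, Ccdc153 and Dynlrb2 were alike. Pearson's r of log2(CPM + 1) was 0.97 between Tmem212 and Dynlrb2 and 0.95 between Ccdc153 and each of these, with clusters sharing the same libraries. Of all genes at 5 CPM or more in the wall, those most like Tmem212 were Dnali1 (0.98), 1700001C02Rik (0.98) and Cdhr4 (0.97). Those most like Dynlrb2 were 1700094D03Rik, 1700001C02Rik and Sntn (all 0.99), and those most like Ccdc153 were Pifo, Ppp1r32 and 1700012B09Rik (all 0.98). Pifo, Sntn and 1700012B09Rik belong to the reference list. Foxj1 was less like the other 3 (0.83 to 0.90) and most like Slc4a2 (0.98), Wbp1 (0.97) and Ormdl2 (0.96). Spag6 was most like Fhl2 (0.94), Pip4k2c and Mical2 (both 0.93), and Nme7 was most like Ndufa4 (0.93), Fam57b (0.90) and Atp1b1 (0.89).

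The age comparison was made on sums per section with edgeR's quasi-likelihood test over all genes, p-values adjusted by Benjamini-Hochberg over all genes tested. In whole sections 0.164% of 17673 genes were called between old and young at an adjusted p under 0.05. The 6 genes were put forward with age results known, so their values are a description and nothing is read from how many of them were called. In whole sections 1 of the 6 was called, Spag6.

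In whole sections no age change of the 4 wall genes passed the test. Foxj1 was at 10.8, 8.46, 7.91, 8.90, 9.34 and 9.19 CPM in young 1, young 2, middle 1, middle 2, old 1 and old 2, and the old values lay between the young ones. The log2 fold change of old over young was -0.11 (SE 0.13, adjusted p = 0.771) for Foxj1, -0.26 (SE 0.27, 0.738) for Ccdc153, 0.0011 (SE 0.19, 0.999) for Tmem212 and -0.052 (SE 0.17, 0.933) for Dynlrb2. Young 1 was the highest of the 6 sections for Foxj1, Ccdc153 and Dynlrb2. Without it the change was 0.11 for Foxj1, 0.16 for Ccdc153 and 0.15 for Dynlrb2, still not called. Spag6l changed by -0.10 (SE 0.11, adjusted p = 0.740).

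Inside the wall all 4 wall genes were lower in both old sections than in both young ones. They did not pass the test with age as the only term or with slide as a further block. They passed it with the replicate number as a further block. Tmem212 was at 212 and 197 CPM in young, 199.8 and 129 CPM in middle-aged and 168 and 106 CPM in old sections. Dynlrb2 was at 154 and 143, 143 and 96.7, and 121 and 78.7 CPM. Ccdc153 was at 274 and 217, 250.2 and 143, and 172 and 97.9 CPM. In each of the 4 genes middle 2 and old 2, the sections of slide 2, were the lowest of their age, and among all genes tested 23.3% had both old sections below both young ones. The median wall spot held 30816 and 23694 UMIs in young, 25363 and 19802 in middle-aged and 23867 and 14609 in old sections. Over all kept spots the medians were 30093 and 26306, 26099 and 25904, and 21766 and 20370. The part of this depth in the wall levels was not tested.

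The log2 fold change of old over young in the wall was -0.79 (SE 0.27, adjusted p = 0.455) for Foxj1, -0.91 (SE 0.37, 0.480) for Ccdc153, -0.62 (SE 0.29, 0.504) for Tmem212 and -0.61 (SE 0.27, 0.487) for Dynlrb2. Here 0.0226% of 13295 genes were called. Nme7 changed by 0.28 (SE 0.21, adjusted p = 0.621), and Spag6 had too few UMIs in the wall to be tested. On slide 1 alone the change was -0.55 for Foxj1, -0.52 for Ccdc153, -0.29 for Tmem212 and -0.30 for Dynlrb2, values with no test. Outside the hypothalamus clusters it was -0.45, -0.61, -0.32 and -0.28. Without old 2 it was -0.57, -0.54, -0.31 and -0.32, and without old 1 it was -1.045, -1.395, -1.017 and -0.978. At 1.5 reference UMIs per 10000 it was -0.72, -0.85, -0.60 and -0.61, and in wall spots low in choroid plexus genes -0.78, -0.82, -0.61 and -0.52. At 6 reference UMIs per 10000 it was -0.37, -0.52, -0.23 and -0.27, and in the 40 spots of largest cilium share per section -0.22, -0.29, 0.012 and -0.084. With the replicate number as a block it was -0.80 (adjusted p = 0.0182), -0.95 (0.0106), -0.65 (0.0412) and -0.64 (0.0412) by edgeR's quasi-likelihood test. That fit called 320 of the 13295 genes, against 3 with age as the only term. With slide as a block the change was -0.50 (adjusted p = 0.772), -0.54 (0.768), -0.31 (0.829) and -0.325 (0.820) by the same test. Same-numbered sections deviated together in the wall, with correlations over genes of 0.28 to 0.429, but the labels do not say what a shared number stands for. For middle-aged and old sections the number and the slide coincide, so the replicate and slide terms differ only in where young 2 falls.

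Some other transcripts of the wall were also lower in both old sections than in both young ones. The summed reference list was at 1752 and 1521 CPM in young and 1341 and 922 CPM in old wall spots (exact permutation p = 0.333 over the 3 ages), and all 24 of its genes had log2 fold changes below 0, with a median of -0.60. Of these, 12 had an unadjusted p under 0.05, against 1355 of all 13295 genes, and neither edgeR nor DESeq2 called any. The reference list also chose the wall spots, so its level there is not independent of the rule. Wall spots just above the threshold, at 3 to 4 reference UMIs per 10000, numbered 15 and 12 in young and 24 and 48 in old sections. Outside the hypothalamus clusters the summed reference list was at 1810 and 1808 CPM in young and 1564 and 1253 CPM in old wall spots. The choroid plexus list was at 2356 and 2084 CPM in young and 1492 and 1359 CPM in old wall spots, and the meningeal list at 1646 and 1446 CPM against 1017 and 934 CPM. White matter markers were at 17545 and 11957 CPM against 10359 and 9884 CPM, and neuroblast and proliferation markers at 54.8 and 53.8 CPM against 30.7 and 37.7 CPM. In these 4 lists both old sections lay below both young ones, while the astrocyte list overlapped between these ages. Middle-aged sections did not all follow the order of the wall genes. In middle 1 and middle 2 the choroid plexus list was at 1441.5 and 1300.5 CPM and the meningeal list at 1171 and 975 CPM. White matter markers were at 20364 and 9535 CPM, and neuroblast and proliferation markers at 28.3 and 58.5 CPM. The neuroblast and proliferation list was also lower elsewhere, at 39.1 and 40.7 CPM in young and 37.6 and 32.8 CPM in old sections. Its gene Sox11 was called lower, old over young, by edgeR's quasi-likelihood test. The change was -0.58 in whole sections (adjusted p = 0.031) and -0.57 elsewhere (0.0349). The median wall spot held 7.71 and 8.27 reference UMIs per 10000 in young and 6.70 and 5.06 in old sections. The part of these shifts in the lower wall levels was not tested, beyond the ratios that follow.

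The wall genes were also measured against the reference list in the same spots. Per 1000 reference UMIs, Tmem212 gave 121, 130, 129, 113, 125 and 115 UMIs in young 1, young 2, middle 1, middle 2, old 1 and old 2. Dynlrb2 gave 87.9, 93.7, 92.2, 84.996, 89.9 and 85.4. In both genes the ages overlap, with an exact permutation p of 0.733 each. Foxj1 gave 106, 105, 95.3, 81.5, 88.5 and 95.3, so that both young sections were above the other 4 (exact p = 0.2, adjusted over the 6 genes 0.6). That order did not hold outside the hypothalamus clusters, where Foxj1 gave 107 and 109 in young and 92.6 and 113 in old sections, nor in the 40 spots of largest cilium share, with 107 and 102 against 87.1 and 112, nor at 6 per 10000, where old 2 (106.67) was above young 2 (106.56). Ccdc153 gave 157, 142, 161, 126, 128 and 106, with both old sections below both young ones (exact p = 0.467, adjusted 0.7). The smallest p this design allows is 0.067, so no gene could have passed 0.05.

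Nme7 gave 15.9, 21.4, 17.6, 33.1, 30.4 and 36.7 UMIs per 1000 reference UMIs (exact p = 0.4, adjusted 0.7), with both old sections above both young ones. In the 40 spots of largest cilium content per section the old mean was 16.3 and the young mean 12.8. In those 40 spots Ccdc153 gave 164 ± 11.99 (SD, n = 2) in young and 145 ± 4.4 in old sections, and Tmem212 gave 137 ± 3.2 and 149.5 ± 7.7, so the direction for Tmem212 turned.

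**Figure D4:**
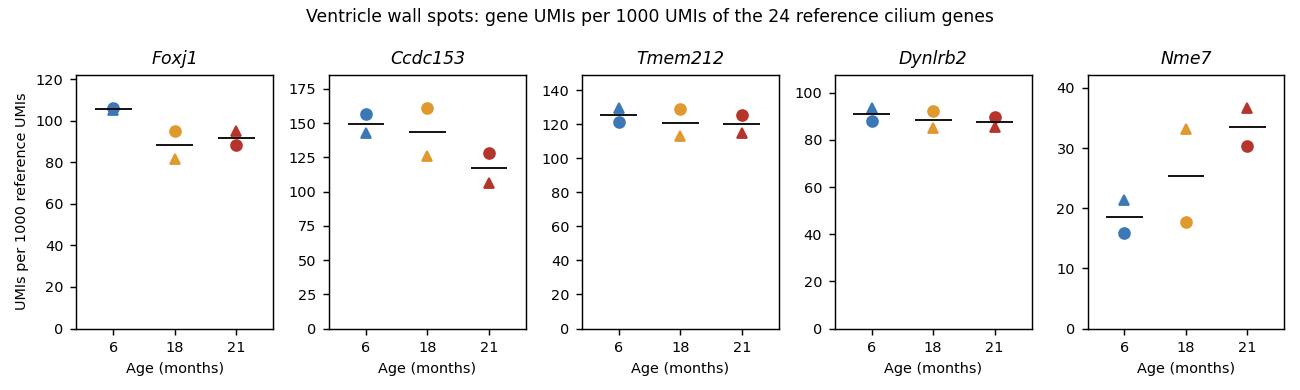
UMIs of 5 genes per 1000 UMIs of the 24 reference cilium genes in wall spots (axis from 0) against age in months, with 1 point per section and a line at the mean of 2. Tmem212 and Dynlrb2 overlap between ages, Foxj1 is highest in the 2 young sections (106 and 105), and Nme7 is highest in old 2 (36.7).

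Whether the age change differed between wall and elsewhere was tested as an interaction with section as a block. The difference of the log2 fold changes, old over young, was -0.80 (SE 0.33, adjusted p = 0.5001) for Foxj1, -1.20 (SE 0.73, 0.654) for Ccdc153, -0.92 (SE 0.68, 0.708) for Tmem212, -0.48 (SE 0.43, 0.757) for Dynlrb2 and -0.26 (SE 0.20, 0.693) for Nme7. None was called, and 0.00563% of the 17759 genes tested were. Without old 2 the differences were -0.47 (Foxj1), -0.47 (Ccdc153), -0.40 (Tmem212) and -0.098 (Dynlrb2). At the other end of the range from leaving out 1 section they were -1.183, -1.959, -1.497 and -0.9351 in the same order. Elsewhere the 4 wall genes changed by 0.025 (Foxj1), 0.28 (Ccdc153), 0.30 (Tmem212) and -0.13 (Dynlrb2), each by about its SE or less and with an adjusted p of 0.719 or more. On slide 1 alone the changes of Foxj1 and Ccdc153 elsewhere were -0.051 and -0.019.

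Spag6 was higher in older sections. Elsewhere it rose from 2.95 and 2.87 CPM at the young age to 5.54 and 5.75 CPM at the old, with a log2 fold change of 0.90 (SE 0.10, adjusted p = 0.0252), and 0.2% of the 17460 genes tested there were called. In whole sections the change was 0.88 (SE 0.11, adjusted p = 0.0308). Middle-aged sections, at 4.84 and 4.85 CPM, also lay above both young ones, with a change of 0.71 (SE 0.10, adjusted p = 0.113) that was not called. Between middle-aged and young, 0.0679% of genes were called in whole sections and 0.0687% elsewhere. The pairs of each age were closer to each other than to any section of another age. Old over middle-aged the change was 0.19 (SE 0.10, adjusted p = 1.0). On slide 1 alone old over young was 0.93 and middle-aged over young 0.73, and with every cluster given the same weight in each section the values were 0.99 and 0.82.

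The call for Spag6 rested on few sections. The log2 fold change elsewhere stayed between 0.85 and 0.95 when any section was left out, but the adjusted p went to 0.231 without old 2, 0.0785 without old 1, 0.0873 without middle 1 and 0.0842 without middle 2. With slide as a further term it was 0.104. In whole sections the call was lost without any one of the 6 sections (adjusted p from 0.0518 without young 2 to 0.270 without old 2). Spag6 also overlaps Gm20539 on the opposite strand over 7699 bases (chr2:18742715-18750413). Gm20539 was at 0.053 to 0.189 CPM elsewhere, and its part in the Spag6 counts was not tested.

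By region, both old sections lay above both young ones for Spag6 in 10 of 14 regions, beside 21.4% of genes with that order in all spots elsewhere. Some of the 10 rest on few counts, with 12 Spag6 UMIs over the 6 sections in white matter and 8 in the unnamed cluster 17. Hypothalamus had 37 and thalamus 42. The regions are cut from the same sections and are not independent, and the share of all genes was not computed region by region. The unnamed cluster 8 went from 4.11 and 2.19 CPM in young through 10.4 and 7.20 CPM in middle-aged to 10.7 and 11.4 CPM in old sections. In isocortex the young values of 5.30 and 5.35 CPM compare with 9.91 and 10.2 CPM in old sections. In the hippocampal formation they were 4.52 and 2.91 CPM against 6.42 and 8.32 CPM. In amygdala and olfactory cortex they were 8.50 and 4.999 CPM against 15.6 and 11.1 CPM. Striatum and the unnamed clusters 11 and 13 and the choroid plexus cluster were the 4 regions whose ages overlapped. In isocortex Spag6l was at 4.79 and 5.29 CPM in young and 5.11 and 5.02 CPM in old sections.

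Nme7 also stood higher in old sections, without passing the test. Elsewhere it was at 35.0 and 32.6 CPM in young, 37.5 and 50.2 CPM in middle-aged and 50.6 and 52.2 CPM in old sections. Old over young, the log2 fold change was 0.55 (SE 0.12, adjusted p = 0.203), and middle-aged over young 0.35 (SE 0.12, adjusted p = 0.555). Middle 2 was at the old level and middle 1 near the young level. The 2 middle-aged sections lay on different slides, and middle-aged over young was 0.15 on slide 1 alone, where old over young was 0.58. DESeq2 called the change of old over young (0.55, adjusted p = 0.00292).

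Both old sections were above both young ones for Nme7 in all 14 regions, beside 21.4% of genes with that order in all spots elsewhere. The regions again share the same 4 sections, so the 14 are not independent. In thalamus Nme7 went from 27.3 and 29.5 CPM in young to 53.7 and 52.5 CPM in old sections, with 36.1 and 47.6 CPM in middle-aged ones. In isocortex it went from 36.4 and 36.0 CPM to 58.9 and 62.3 CPM, and in white matter from 12.9 and 12.4 CPM to 20.7 and 22.1 CPM. The overlapping gene Atp1b1 had a log2 fold change of -0.073 (SE 0.061, adjusted p = 0.650) elsewhere and Blzf1 one of -0.049 (SE 0.060, adjusted p = 0.774). In white matter Atp1b1 was at 360.1 and 336 CPM in young and 408 and 435 CPM in old sections.

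**Figure D5:**
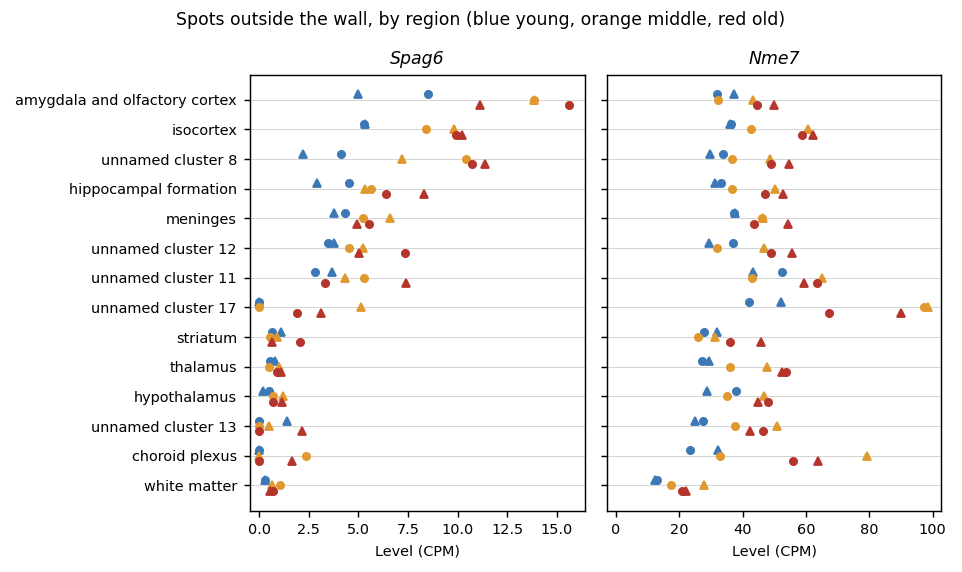
Level (CPM) of Spag6 and Nme7 in spots outside the wall, by region (rows ordered by Spag6), with 1 point per section, blue for young, orange for middle-aged and red for old (circle, replicate 1; triangle, replicate 2). Spag6 is above 4 CPM on average only in the upper 7 rows, and both red points of Nme7 lie to the right of both blue points in all 14 rows. Among all genes, 21.4% had that order in all spots elsewhere, and the rows share the same sections.

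Other genes of the pathway were read from 9 lists of axonemal dyneins, dynein assembly factors, central pair and radial spoke proteins, nexin-dynein links, multiciliation regulators, intraflagellar transport, cytoplasmic dynein light chains, the Nme family and the gamma-tubulin ring. Of their 126 genes, 123 were tested in whole sections, 118 in the wall and 116 elsewhere, and edgeR and DESeq2 called 0 of them between old and young in each setting. At an unadjusted p under 0.05 there were 3 of the 123 in whole sections, beside 2246 of all 17673 genes. In the wall there were 24 of the 118, beside 1355 of all 13295 genes, and elsewhere 6 of the 116, beside 2253 of all 17460. The median log2 fold change of the list genes, old over young, was -0.0098, -0.33 and 0.032 in the 3 settings, beside -0.0023, 0.0025 and -0.0021 over all genes. In the wall, all 15 tested central pair and radial spoke genes and 14 of 16 axonemal dyneins had values below 0, with medians of -0.49 and -0.60. Rsph1 and Rsph4a of the central pair and spoke list, and Zmynd10 of the assembly list, also belong to the reference list that chose the wall spots. The 28 intraflagellar transport genes, which serve all cilia, had a median of -0.19, and the 8 Nme family genes other than Nme7 one of 0.095. The 8 Nme genes had whole-section changes of -0.52 to 0.17, all below the 0.54 (SE 0.12, adjusted p = 0.200) of Nme7. The regulators Rfx2 and Rfx3 changed by 0.16 (SE 0.19) and -0.11 (SE 0.21) in whole sections.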

How the data were processed

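The authors deposited UMI counts per gene and spot as unnormalized matrices. The file headers name Space Ranger 1.3.1, and the build was mm10 per the submitters' processing notes. How strand was handled is not given in the sources used here. Spots under 500 UMIs were left out (2 spots). Barcodes come from a fixed grid, and 1920 occurred in all 6 sections. The 6 genes, the gene lists and the marker lists were chosen with earlier results of these data known.

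Wall spots followed the rule in the text. Clusters came from scanpy 1.11.5 (2000 variable genes without the 6 genes, 30 principal components, 20 neighbours, Leiden resolution 0.8), gave 17 clusters and were named when at least 3 fixed markers were among the 50 leading genes, at least 1 among the first 10, and the ratio to the runner-up region was 2 or more. The naming rule was set after the clusters were seen. UMIs were summed per section, so the section is the replicate. The labels give 2 males per age, and sections were taken as different animals. Sums were fitted with edgeR 4.0.16 (TMM, filterByExpr, robust quasi-likelihood, age as the only term, 6 sections), called at an adjusted p of 0.05. The SE of a log2 fold change is its size over the square root of F. Ratios and shares had exact permutation tests. Spag6 and Dynlrb2 have near relatives whose reads the counting could split. The fit was tested on simulated data.

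All 6 genes are given whatever their values, list genes by counts and by name where called, and like genes as the 3 of largest r. Alternatives were DESeq2 1.42.0, limma 3.58.1, RLE factors, no filter, replicate or slide terms, other wall thresholds (1.5 and 6 per 10000), the 40 spots of largest cilium share, wall spots low in choroid plexus genes (under 5 per 10000) and each section left out. Slide 1 alone, equal cluster weights, a stricter definition of elsewhere and the wall outside hypothalamus clusters were chosen after seeing the data.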

Additional observations from a re-analysis of the deposited data

How the results depend on the processing

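Counts of called genes moved most. Old against young, the 29 genes of whole sections became 179 with DESeq2, 113 with no filter, 7 with slide as a term and 6 to 75 leaving out 1 section. The 35 elsewhere became 178, 134, 13 and 7 to 145. The 3 in the wall became 9 with DESeq2, 119 with no filter, 5 at 6 per 10000, 8 in the 40 spots of largest cilium share, 17 outside hypothalamus clusters and 1 to 4 leaving out 1 section. Middle-aged against young, 12 became 70, 58, 3 and 1 to 33 in whole sections and 61, 48, 5 and 1 to 59 elsewhere, in the same order. The 1 gene of the interaction became 5 at 6 per 10000 and 1 to 176 leaving out 1 section. It became 0 with limma (1175 genes at an unadjusted p under 0.05) and 0 with edgeR at 1.5 per 10000 (1167).

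The replicate numbers give 2 pairs per comparison, and same-numbered sections deviated together, with correlations over genes of 0.122 to 0.472 in whole sections and 0.28 to 0.429 in the wall. The labels do not say whether a number marks a shared animal, batch or day. For middle-aged and old sections number and slide coincide and cannot be told apart, and the replicate and slide terms differ only in where young 2 falls. With the replicate number as a block, 320 of the 13295 genes tested in the wall were called, against 3 with age as the only term. Among the 320 were Foxj1 (-0.80, adjusted p = 0.0182), Ccdc153 (-0.95, 0.0106), Tmem212 (-0.65, 0.0412) and Dynlrb2 (-0.64, 0.0412) by edgeR's quasi-likelihood test. By the same test Spag6 was then 0.88 in whole sections (adjusted p = 0.0634, not called) and 0.90 elsewhere (0.04355, called).

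Spag6, old over young, kept its direction throughout. In whole sections it was 0.89 with slide as a term (adjusted p = 0.145) and 0.84 to 0.92 leaving out 1 section, and elsewhere 0.90 with slide (0.104) and 0.85 to 0.95. It was called with DESeq2 (adjusted p = 4.72e-05 whole, 1.99e-05 elsewhere) and with edgeR and no filter (0.00379 and 0.0024). Middle-aged over young, it was called at 0.71 with DESeq2 (0.00653 whole, 0.00646 elsewhere) and at 0.71 with no filter (0.0253 and 0.0199), and was 0.82 with equal cluster weights. Nme7, old over young, was called with DESeq2 alone.

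Changes near 0 turned sign without being called. In whole sections Tmem212 was -0.0015 with DESeq2 and -0.0032 with no filter. Leaving out 1 section, Foxj1 ran from -0.30 to 0.11, Ccdc153 from -0.58 to 0.16, Tmem212 from -0.21 to 0.25 and Dynlrb2 from -0.23 to 0.15. Elsewhere, with slide as a term and in spots under 1.5 per 10000, Foxj1 was -0.077 and -0.012 and Ccdc153 -0.039 and -0.14, and Tmem212 was -0.055 with slide. Leaving out 1 section, Foxj1 elsewhere ran from -0.11 to 0.15 and Ccdc153 from -0.076 to 0.58. In the wall Tmem212 was 0.012 in the 40 spots of largest cilium share, and the interaction of Nme7 was 0.0083 at 1.5 per 10000. Per reference UMI, log2 old over young turned to 0.051 at 6 per 10000, 0.13 in the 40 spots and 0.041 outside hypothalamus clusters for Tmem212, and to 0.0022, 0.026 and 0.082 for Dynlrb2. The cause of these shifts was not tested.

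With 2 sections per age and slide 2 holding older sections only, slide and age are partly confounded. Spag6 in the wall lies near the level of 3 UMIs. The level of 3 UMIs covers counting error only, while the SDs and SEs also hold the spread between sections.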
